A study of Solanum lycopersicum with 24 samples.

Results

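Tomato leaves that had been hardened in the cold carried a group of mRNAs at high levels in total RNA that were much scarcer once the same kind of leaf had also spent 2 h at 0 °C. The group holds 100 transcripts of the 12981 RefSeq protein-coding transcripts (accessions starting with NM or XM) that averaged 5 TPM or more in the hardened leaves, out of 37476 such transcripts and 45845 rows in all. TPM is the share of a library assigned to a transcript after correction for its length, scaled so that a library sums to 1000000. Each transcript got a score, its mean TPM in the 2 Hardening libraries of total RNA plus 1, divided by the highest such value among Combo, Stress and Control, and the 100 highest scores were taken, with 1 ELIP and 1 CRY3 transcript left out. The score was 36.9 for the first member, 2.59 at the median and 2.14 for the last, with 35 members over 3 and 16 over 4. The border of the group is not a gap: LOC101254492 (XM_019213829.2) and LOC101249346 (XM_019213571.2), the last members, scored 2.15 and 2.14, and the next transcripts outside, LOC101262711 (XM_010321090.3) and XM_010316721.1, both scored 2.14.

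Cold hardening, or acclimation, is the exposure of a plant to low but non-freezing temperature, during which leaves change their membranes, sugars, pigments and transcriptome and become more tolerant of stronger cold. Light absorbed in the cold cannot be fully used by photosynthesis, and leaves are known to make flavonoids and carotenoids that screen or dissipate excess light. HY5, a bZIP transcription factor of light signalling, and MYB12, a MYB factor of flavonol synthesis, act upstream of chalcone synthase in this branch of metabolism. An mRNA that carries several ribosomes sediments with the polysomes, and one that carries a single ribosome sediments with the monosomes, so both fractions report ribosome-bound mRNA, whereas total RNA also holds mRNA that is not bound.

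The study compared leaves of tomato plants (Solanum lycopersicum, line YaLF) 28 days old under 4 conditions. Combo plants were hardened for 5 days at 6 °C and then kept for 2 h at 0 °C, Hardening plants had the 5 days at 6 °C alone, Stress plants the 2 h at 0 °C alone, and Control plants neither. The 6 °C is that of the labels, and the study's text gives another temperature. From each condition, total RNA, polysomal RNA and monosomal RNA were sequenced in 2 libraries, 24 in all. By the study's methods, sampling of Combo and Stress leaves followed that of Hardening and Control leaves by 2 h. The 0 °C treatment and the time of day therefore cannot be told apart where Combo or Stress is compared with Hardening or Control. The column headers call the 2 libraries of a group biological replicates and the study's text calls them technical ones, so the p-values measure the spread between these libraries only, which may be technical.

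The labels were checked with transcripts outside the group. A set of 100 transcripts that were high in both Combo and Hardening and low in both Stress and Control in total RNA had, in polysomes, median levels of 39.4 and 46.0 TPM in the libraries labelled Combo, 0.769 and 0.897 TPM in those labelled Hardening, 36.4 and 33.6 TPM in those labelled Stress, and 0.269 and 0.203 TPM in those labelled Control. In monosomes the medians of the same set were 35.9 and 35.6 TPM under Combo, 0.709 and 0.770 TPM under Hardening, 38.7 and 40.3 TPM under Stress, and 0.0808 and 0.118 TPM under Control. Thus, in both ribosome fractions, the libraries labelled Stress carried the profile that hardened leaves had in total RNA, and the libraries labelled Hardening did not. A set of 100 transcripts higher at 0 °C in both pairs of total RNA, added after seeing the data, was less clear. Its medians in polysomes were 25.2 and 24.5 TPM under Combo, 14.1 and 16.7 TPM under Hardening, 11.4 and 11.1 TPM under Stress and 6.56 and 7.20 TPM under Control, so the label Hardening was above the label Stress. In monosomes they were 8.37 and 8.77 TPM under Combo, 3.46 and 4.63 TPM under Hardening, 7.32 and 6.69 TPM under Stress and 2.08 and 2.91 TPM under Control. This is the order that the labels give, but in TPM as deposited. The scaling between libraries used in the tests divided the monosome libraries by 1.58 and 1.59 (Combo), 0.755 and 0.815 (Hardening), 1.32 and 1.73 (Stress) and 0.543 and 0.524 (Control). After that division the medians of all labels overlap, so no order remains in monosomes. The labels are kept as given, and Combo minus Control is the comparison that uses none of the doubted libraries. TPM keeps no sequencing depth, and the read numbers that the study lists were not used here. Transcripts at 1 TPM or more numbered 20551 to 21698 per library in total RNA, 13363 to 18415 in polysomes and 12922 to 18270 in monosomes, the fewest under Control, where the 10 most abundant transcripts held 55.7% to 68.9% of the TPM of the ribosome fractions.

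In total RNA the median member had 5.82 TPM in Combo, 22.4 TPM in Hardening, 3.30 TPM in Stress and 3.74 TPM in Control leaves, as means of 2 libraries. All these values chose the members, so they are given as a description and without a test. The level in Combo was 0.338 times that in Hardening at the median member (0.00625 to 0.465 times over all 100), whereas Hardening exceeded Control 4.52-fold and Stress 5.30-fold at the median. The members did not all return to the Control level after 2 h at 0 °C. Combo was 1.44 times Control at the median, at least 2 times Control in 30 members and below Control in 26, and Combo was the second highest condition in 70 members, Control in 20 and Stress in 10. The short cold alone left the median member near Control, with a ratio of Stress to Control of 0.943. Over single members this ratio ranged from 0.190 to 3.18. Both Hardening libraries lay above the other 6 total RNA libraries in 95 members, and over all transcripts of 1 TPM or more 13.9% had this pattern, a share set beside the count only because the rule itself asks for it. The Hardening level itself ranged from 5.44 to 694 TPM, with 10 members at 100 TPM or more and 23 at 10 TPM or less.

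**Figure D1:**
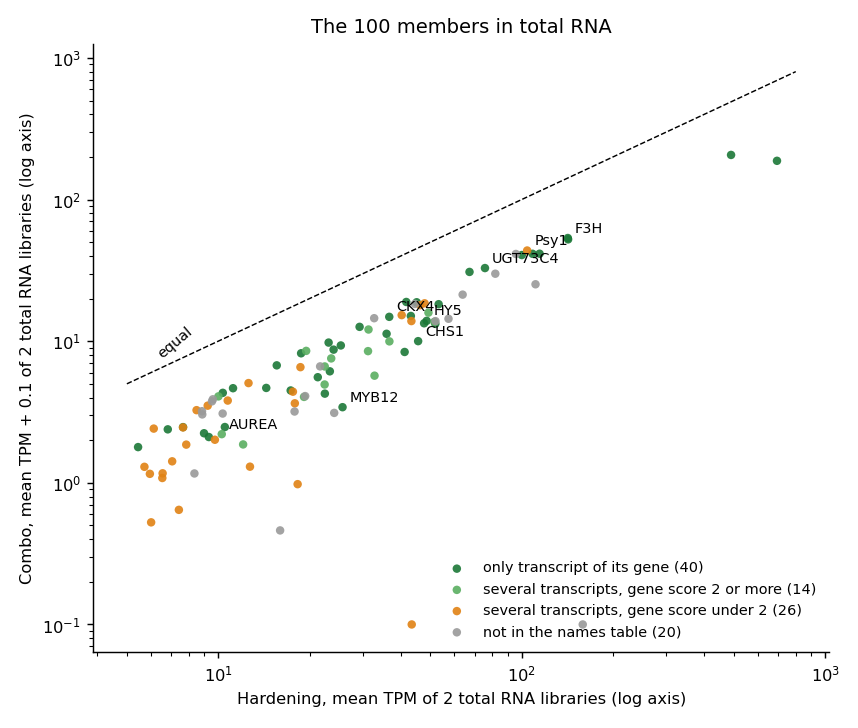
Mean TPM of the 2 Combo total RNA libraries plus 0.1 (vertical, log axis) against the mean of the 2 Hardening total RNA libraries (horizontal, log axis) for the 100 members, coloured by whether the member is the only transcript of its gene. All 100 points lie below the dashed line of equal levels, by the rule, and 2 members, at the bottom, were at or near 0 TPM in both Combo libraries.

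The replicates did not carry all members equally well. The 2 Hardening total RNA libraries differed by less than 1.2 times in 63 members and by more than 3 times in 6. The first place belongs to such a transcript: XM_019215444.2 had 0 TPM in both Combo libraries, 316 and 1.61 TPM in the Hardening libraries, 0.0000626 and 0 TPM in the Stress libraries and 6.67 and 0 TPM in the Control libraries. The second, LOC101251571 (XM_019213530.2, chromosome 4), had at most 0.0000297 TPM in the Combo libraries, 76.2 and 10.7 TPM in the Hardening libraries, at most 1.06 TPM in the Stress libraries and at most 2.20 TPM in the Control libraries. The score of XM_019215444.2 rested on 1 Hardening library, and that of LOC101251571 mostly on 1. When the rule was applied to the first replicate of each condition alone, 63 of its 100 transcripts were members, and 59 of the 100 scored 2 or more in the second replicate, where 1.22% of all transcripts of 5 TPM or more did. With the second replicate alone, 67 were members, and 60 of its 100 scored 2 or more in the first replicate, against 1.01% of all. These are the libraries that chose the members, and the 2 of a condition may be technical repeats. The counts therefore describe agreement between libraries and do not show that the pattern holds in other plants.

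The names table pairs 80 members with 79 genes, 12 of them with a gene symbol and 68 with a locus number only. It gives no product for the locus numbers, so no role is stated for them. The matched members lie on all 12 chromosomes, with 2 to 12 on each and the most on chromosome 5, and no pair of their genes lies within 2 protein-coding genes of each other. Of the gene lists used further on, the light list holds 1 member, HY5, the flavonoid list 3, MYB12, CHS1 and F3H, and the carotenoid list 2, Psy1 and CRTISO-L1.

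HY5 (NM_001247891.2, chromosome 8), the light-signalling factor, had 13.9 and 13.8 TPM in Combo, 45.8 and 51.4 TPM in Hardening, 4.73 and 6.44 TPM in Stress and 3.77 and 3.22 TPM in Control total RNA. MYB12 (NM_001247472.1, chromosome 1), which activates flavonol genes, had 3.49 and 3.14 TPM in Combo, 26.2 and 25.2 TPM in Hardening, 0.458 and 0.560 TPM in Stress and 1.16 and 1.02 TPM in Control. In both factors the Combo libraries lay well below the Hardening libraries and still above all Stress and Control libraries. CHS1 (NM_001247104.2, chromosome 9), chalcone synthase, which makes the first flavonoid skeleton, had 10.03 and 9.78 TPM in Combo, 44.7 and 46.4 TPM in Hardening, 3.62 and 2.95 TPM in Stress and 5.48 and 5.01 TPM in Control. F3H (NM_001329483.1, chromosome 2), flavanone 3-hydroxylase, which acts further along the same route, was the most abundant member with a gene symbol, at 55.1 and 51.7 TPM in Combo, 144 and 140 TPM in Hardening, 6.71 and 6.37 TPM in Stress and 8.80 and 8.93 TPM in Control. The order of the conditions was thus Hardening, Combo, Control and Stress in MYB12, CHS1 and F3H, whereas in HY5 the Stress libraries lay above the Control libraries.

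The carotenoid route has members as well. Psy1 (NM_001347836.1, chromosome 3), a phytoene synthase, which catalyses the first committed step to carotenoids, had 42.2 and 44.9 TPM in Combo, 86.8 and 122 TPM in Hardening, 5.09 and 7.86 TPM in Stress and 12.1 and 5.98 TPM in Control. CRTISO-L1 (XM_004238938.4, chromosome 5), named for its likeness to carotenoid isomerase, had 18.9 and 17.4 TPM in Combo, 56.9 and 49.6 TPM in Hardening, 21.5 and 18.6 TPM in Stress and 15.9 and 15.3 TPM in Control. The Combo libraries of Psy1 stayed above every Stress and Control library, while those of CRTISO-L1 overlapped with Stress. AUREA (XM_026028930.1, chromosome 1), which belongs to the gene for the enzyme that makes the phytochrome chromophore, had 1.68 and 2.53 TPM in Combo and 10.9 and 9.59 TPM in Hardening, with at most 1.32 TPM in Stress and at most 1.05 TPM in Control.

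The other members with symbols include enzymes that attach sugars to small molecules and one that degrades a hormone. UGT73C4 (NM_001361348.1, chromosome 10), a glycosyltransferase, had 34.5 and 31.0 TPM in Combo, 75.2 and 76.1 TPM in Hardening, 3.81 and 4.16 TPM in Stress and 9.15 and 9.17 TPM in Control. UGT76E1 (NM_001361347.1, chromosome 10), another, had 2.12 and 2.15 TPM in Combo, 8.54 and 9.42 TPM in Hardening, 0.226 and 0.367 TPM in Stress and 0.588 and 0.567 TPM in Control. Both glycosyltransferase mRNAs kept the order Hardening, Combo, Control and Stress without overlap. CKX4 (NM_001279322.1, chromosome 4), a cytokinin oxidase, which breaks cytokinins down, had 15.4 and 14.1 TPM in Combo, 35.1 and 38.1 TPM in Hardening, 5.35 and 6.21 TPM in Stress and 9.39 and 12.8 TPM in Control. DCL2d (XM_010314304.3, chromosome 11), a Dicer-like gene of small RNA production, had 2.48 and 4.94 TPM in Combo and 0.766 and 20.7 TPM in Hardening, against 0.0027 and 3.58 TPM in Stress and 0.431 and 3.46 TPM in Control, so its Hardening libraries overlapped with all other conditions. ACAT3 (XM_010325605.3, chromosome 7) had 0.853 and 1.11 TPM in Combo, 6.52 and 6.56 TPM in Hardening, 0.363 and 0.000153 TPM in Stress and 3.07 and 0.00001 TPM in Control.

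Among the members without a gene symbol, LOC101258159 (XM_004240826.4, chromosome 6) was the most abundant, at 182 and 193 TPM in Combo, 687 and 700 TPM in Hardening, 67.0 and 75.3 TPM in Stress and 49.4 and 56.5 TPM in Control. It was chosen for naming after its values were seen. LOC101255814 (XM_004244270.4, chromosome 7) was high in Hardening over 3 conditions at much the same level, with 194 and 219 TPM in Combo, 445 and 534 TPM in Hardening, 204 and 229 TPM in Stress and 180 and 216 TPM in Control. XM_004242472.4, the third by score, had 2.91 and 3.12 TPM in Combo, 22.8 and 25.4 TPM in Hardening and at most 0.304 TPM in any Stress or Control library. LOC101244316 (XM_004247008.4, chromosome 9) had 3.96 and 4.37 TPM in Combo, 21.0 and 23.9 TPM in Hardening, 2.42 and 2.45 TPM in Stress and 2.48 and 2.80 TPM in Control. In these 4 members the Hardening libraries lay close together and far above the rest, but in some others of the first 15 by score they did not. LOC101261561 (XM_026027716.1, chromosome 10) had 14.7 and 0.0913 TPM in Hardening, so its place rested on 1 library, and LOC101254156 (XM_010314435.3, chromosome 11) had 23.6 and 12.9 TPM there. LOC101263312 (XM_019214117.2, chromosome 5) had 6.02 and 1.07 TPM in Combo and 21.7 and 14.1 TPM in Hardening, and LOC101262119 (XM_004240675.4, chromosome 6) had 2.401 and 0 TPM in Combo and 15.6 and 9.86 TPM in Hardening. Of the rest of the first 15, LOC101255975, LOC101251680, XM_004253470.4, LOC101246792 and XM_026032445.1 had no Hardening library below 5.04 TPM. Their Hardening means were above every other condition by the rule, as in all members.

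Whether the loss belongs to the gene or to one of its transcripts differs among the members. Of the 80 matched members, 40 are the only transcript of their gene in the table and 40 share it with others, with a median of 50.1% of the TPM of the gene in Hardening total RNA. When TPM was summed over all transcripts of the gene, the score of those 40 was 1.33 at the median, whereas the score of the transcript was 2.55. The summed score was 2 or more in 14, from 1.5 to 2 in 5 and under 1.5 in 21, of which 9 were under 1 and so not highest in Hardening at all. HY5, CRTISO-L1 and CKX4 are single-transcript genes in the table. AUREA, 1 of 5 transcripts, kept a gene score of 2.35, with a summed level of 10.6 TPM in Combo, 33.2 TPM in Hardening, 13.5 TPM in Stress and 12.8 TPM in Control. Psy1, 1 of 4 transcripts, had a gene score of 1.93, with 81.5 TPM in Combo, 158 TPM in Hardening, 37.2 TPM in Stress and 27.1 TPM in Control. DCL2d fell the other way, since all its 5 transcripts together had 29.9 TPM in Combo, 21.5 TPM in Hardening, 7.05 TPM in Stress and 3.72 TPM in Control. LOC101251571, the second by score, was similar, as both its transcripts together had 190 TPM in Combo and 167 TPM in Hardening, against 11.3 TPM in Stress and 14.5 TPM in Control. A shift of reads between transcripts of one gene, whether in the leaf or in the assignment by the authors' software, cannot be told apart from these values.

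**Figure D2:**
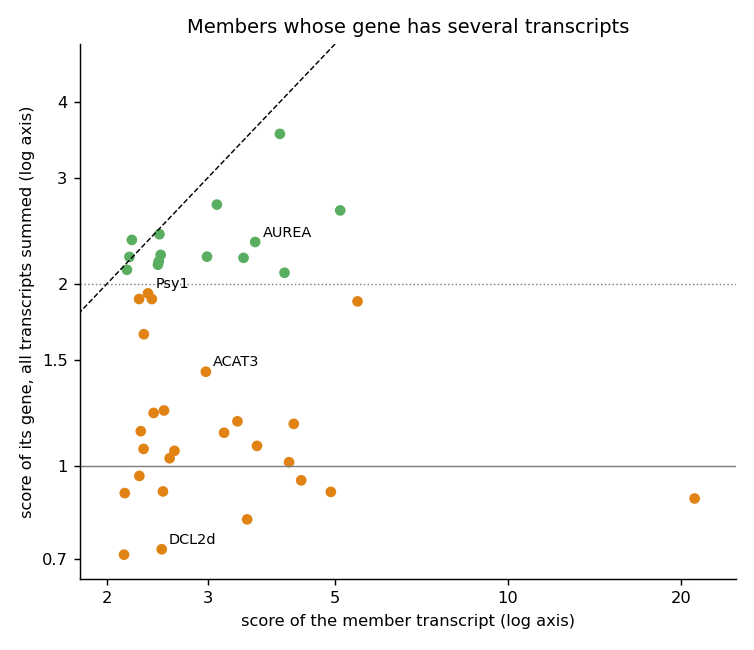
Score of the member transcript (horizontal, log axis) against the score of its gene after TPM was summed over all its transcripts (vertical, log axis) for the 40 members whose gene has several transcripts; the dashed line marks equal scores, the dotted line 2 and the solid line 1. The 14 green points have a gene score of 2 or more, and 9 of the orange points lie under 1.

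The other genes of these routes were examined in total RNA with lists of symbols. Members were removed from them, and so were the ELIP and CRY3 transcripts that the rule left out. A transcript was called when its adjusted p in limma, with Benjamini-Hochberg adjustment over all transcripts tested, was under 0.05 and its log2 change, on the log2(scaled TPM + 1) scale, was over 1 or under -1. Over all 21981 transcripts tested, 1.87% were higher and 2.32% lower in Combo than in Hardening. Of 7 tested transcripts of flavonoid synthesis, 1 was lower in Combo than in Hardening, and 5 were lower at an unadjusted p under 0.05, with a median log2 change of -0.47 where all transcripts had -0.01. That transcript was CHI1, at 13.7 and 12.0 TPM in Combo and 29.3 and 28.2 TPM in Hardening (log2 change -1.08 ± 0.09 SE, adjusted p = 0.000937 in limma). CHS2, the second chalcone synthase, had 3.92 and 3.65 TPM in Combo, 7.56 and 6.83 TPM in Hardening, 15.7 and 14.3 TPM in Stress and 13.8 and 11.47 TPM in Control. Unlike CHS1, CHS2 was lower in Hardening than in Control (log2 change -1.05 ± 0.13 SE, adjusted p = 0.000576 in limma). For Hardening minus Control, 14.3% of all transcripts were higher and 16.5% lower, and in the flavonoid list 2 were higher, PAL2 and MYB75, and 3 were lower, CHS2, PAL3 and PAL5. With TPM as deposited 3 were higher and 2 lower, and CHS2 was no longer called, since its log2 change was under 1 in size.

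Among 23 tested transcripts of carotenoid and xanthophyll genes, 3 were lower and 1 was higher in Combo than in Hardening, with a median log2 change of -0.48. VDE, the violaxanthin de-epoxidase of the xanthophyll cycle, had 6.47 and 6.24 TPM in Combo and 28.6 and 29.4 TPM in Hardening (log2 change -2.00 ± 0.07 SE, adjusted p = 0.000204 in limma), but 25.1 and 25.7 TPM in Stress and 23.0 and 25.0 TPM in Control. ZEP, the zeaxanthin epoxidase that runs the cycle the other way, had 66.7 and 61.3 TPM in Combo and 133 and 131 TPM in Hardening (log2 change -1.01 ± 0.07 SE, adjusted p = 0.000745 in limma). Both were low in Combo, yet neither was called higher in Hardening than in Control. A CCD1B transcript (NM_001323583.1), of a carotenoid cleavage dioxygenase, was also lower (-1.62), and NCED1, of abscisic acid synthesis, was higher, with 169 and 181 TPM in Combo and 76.0 and 93.9 TPM in Hardening. Hardening exceeded Control in 6 of the 23, among them 3 other Psy1 transcripts, and was lower in 3.

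In the list of photoreceptors and light signalling, 1 of 18 tested transcripts was lower in Combo than in Hardening, PHOT2 (XM_010325267.3), of a blue-light receptor, with 28.4 and 23.1 TPM in Combo and 59.9 and 55.4 TPM in Hardening. It had more in Stress (85.0 and 83.8 TPM) and Control (78.4 and 74.7 TPM) than in Hardening. Another PHOT2 transcript (NM_001247360.3) overlapped between Combo (9.78 and 6.51 TPM) and Hardening (12.6 and 5.93 TPM). Hardening was lower than Control in 3 of the 18, PHOT1, Cry1b and PHYE. The lists for ethylene response factors, WRKY and NAC factors, sugar metabolism and the cold regulon had calls in the other direction, with 7 of 46, 3 of 21, 2 of 19 and 2 of 9 transcripts higher in Combo than in Hardening. Of 9 heat shock transcripts and 15 of chlorophyll a/b-binding proteins, 0 were called in Combo minus Hardening in limma, with 3 and 10 at an unadjusted p under 0.05, although all 15 chlorophyll a/b-binding transcripts were lower in Hardening than in Control. The 16 tested markers of leaf mesophyll, which include those, gave 0 calls in Combo minus Hardening in limma, with 11 at an unadjusted p under 0.05, and 16 of 16 were lower in Hardening than in Control. Of the trichome, phloem, fruit and root markers, 1, 5, 1 and 2 transcripts were tested and 0 were called in Combo minus Hardening in limma, with 1, 4, 0 and 0 at an unadjusted p under 0.05. The part of other cell types in the members' levels was not tested, and in these bulk leaf samples fewer cells of a type and less RNA per cell cannot be told apart. The circadian clock list matched no symbol of the table.

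The polysome and monosome libraries were not used to choose the members, so the members were tested there. They come from the same conditions, however, and the rule asked for less total RNA in Control than in Hardening. Combo total RNA of the members was 1.44 times Control at the median. A rise in Combo minus Control in the ribosome fractions is therefore not independent of the choice. A filter of 1 scaled TPM on average kept 87 members in polysomes and 90 in monosomes for the tests. Without scaling the same filter kept 90 in each fraction, and counts out of 90 in polysomes concern those. The median level of the 100 members in polysomes, in TPM as deposited, was 15.3 and 11.2 TPM under Combo, 3.44 and 3.06 TPM under the label Hardening, 7.37 and 6.61 TPM under the label Stress and 1.51 and 1.44 TPM under Control. In monosomes it was 14.5 and 17.6 TPM under Combo, 2.08 and 2.15 TPM under the label Hardening, 12.5 and 15.8 TPM under the label Stress and 1.03 and 1.22 TPM under Control.

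**Figure D3:**
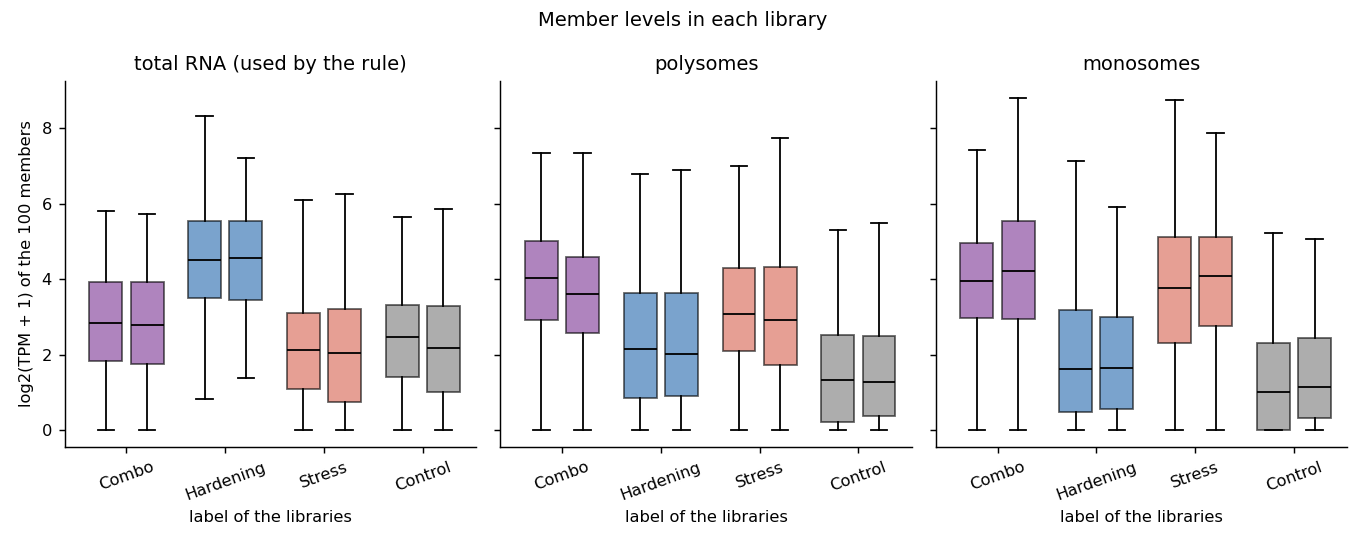
Box plots of log2(TPM + 1) of the 100 members in each of the 24 libraries (box, quartiles with the median as a black line; whiskers, 1.5 times the interquartile range; outliers not drawn), by fraction and label. In total RNA the Hardening libraries are highest, by the rule, and in both ribosome fractions the libraries labelled Combo and Stress lie above those labelled Hardening and Control.

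Combo minus Control uses only libraries whose profile did not go against their label. In polysomes, 46 of 87 members were higher in Combo than in Control in limma, where 25.1% of all 17767 transcripts were, and 0 members were lower, where 15.5% of all were. At an unadjusted p under 0.05, 55 members were higher and 3 lower. The median log2 change was 1.17 over the members and 0.31 over all transcripts. In monosomes, 58 of 90 members were higher, where 26% of all 17379 transcripts were, and 2 were lower, where 14% of all were, with a median log2 change of 1.58 over the members and 0.40 over all. With the Combo and Control libraries fitted alone, 42 members were higher in polysomes, where 23.5% of all were, and 46 in monosomes, where 21.8% of all were. Without the second Combo library the monosome count was 32, and the share of all transcripts higher was 13.5%. TPM as deposited, without scaling between libraries, moved the median of all transcripts in Combo minus Control to 1.44 in polysomes and 1.57 in monosomes and gave 77 and 80 of 90 members higher, where 61% and 62% of all were higher and 4.75% and 3.85% lower, so all changes here are relative to the bulk of transcripts.

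Of the members on the light, flavonoid and carotenoid lists, F3H, CHS1, Psy1 and HY5 were called higher in Combo than in Control in both fractions. F3H had 100.2 and 76.7 TPM under Combo, 4.28 and 5.48 TPM under the label Hardening, 49.7 and 44.9 TPM under the label Stress and 2.53 and 1.903 TPM under Control in polysomes, and its log2 change in Combo minus Control was 3.51 ± 0.18 SE (adjusted p = 2.43e-05 in limma). CHS1 had 28.4 and 15.9 TPM under Combo, 3.74 and 4.06 TPM under Hardening, 10.4 and 11.1 TPM under Stress and 0.387 and 0.895 TPM under Control, a change of 2.78 ± 0.33 SE (adjusted p = 0.000605 in limma). Psy1 had 90.1 and 72.4 TPM under Combo, 21.6 and 17.3 TPM under Hardening, 32.2 and 25.7 TPM under Stress and 10.6 and 6.66 TPM under Control, a change of 1.69 ± 0.22 SE (adjusted p = 0.000939 in limma). For these 3 enzymes no Combo polysome library overlapped with any library of another label in TPM as deposited. Scaling divided the Combo libraries by 1.59 and 1.57 and the Stress libraries by 1.13 and 1.01. After it, the Combo and Stress libraries of CHS1 overlapped. HY5 had 18.7 and 11.8 TPM under Combo, 4.43 and 3.94 TPM under Hardening, 14.2 and 10.97 TPM under Stress and 1.14 and 2.26 TPM under Control, a change of 1.40 ± 0.33 SE (adjusted p = 0.0111 in limma), a call that was lost without the first Combo library (1.01) or the first Control library (0.84). The Combo and Stress libraries of HY5 overlapped. MYB12 fell under the filter in polysomes, where it had 1.92 and 1.59 TPM under Combo, 0.245 and 0.201 TPM under Hardening, 1.85 and 1.09 TPM under Stress and at most 0.0402 TPM under Control.

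In monosomes the same genes were again high under Combo and Stress. HY5 had 19.7 and 24.6 TPM under Combo, 0.761 and 2.26 TPM under Hardening, 33.8 and 33.6 TPM under Stress and 0 and 1.84 TPM under Control, with a change of 2.81 ± 0.68 SE in Combo minus Control (adjusted p = 0.0152 in limma). This call was lost without either Combo library (2.96 and 2.64) and with the Combo and Control libraries fitted alone (2.74), at a similar size. F3H had 45.1 and 44.6 TPM under Combo, 6.33 and 4.49 TPM under Hardening, 36.4 and 53.3 TPM under Stress and 0.969 and 1.63 TPM under Control, with a change of 3.11 ± 0.29 SE (adjusted p = 0.00048 in limma). CHS1 had 27.0 and 63.3 TPM under Combo, 5.36 and 3.45 TPM under Hardening, 40.3 and 23.5 TPM under Stress and 1.00 and 0.953 TPM under Control, with a change of 3.26 ± 0.51 SE (adjusted p = 0.00287 in limma). Psy1 had 71.6 and 65.2 TPM under Combo and 7.99 and 6.09 TPM under Control, with a change of 1.65 ± 0.34 SE (adjusted p = 0.00864 in limma), lost without the first Combo library (1.60). MYB12 had 3.33 and 3.78 TPM under Combo, 0.439 and 0.149 TPM under Hardening and 2.94 and 3.62 TPM under Stress and was listed at 0 in both Control libraries, so no fold is given.

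**Figure D4:**
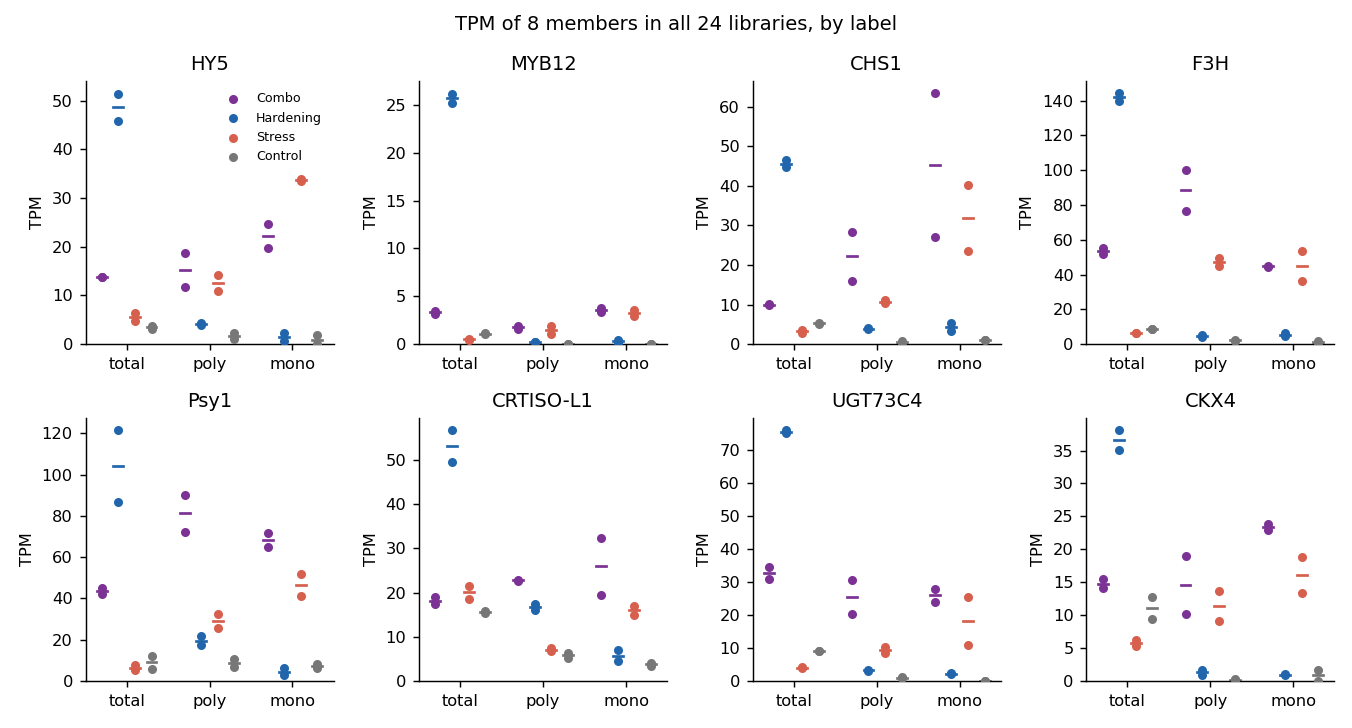
TPM (vertical, linear axis from 0) of 8 members in all 24 libraries, grouped by fraction and coloured by label; points are single libraries and short lines the means of 2. Each gene is highest under Hardening in total RNA, and in the ribosome fractions F3H, CHS1, Psy1, UGT73C4 and CKX4 are higher under Combo than under Hardening and Control.

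UGT73C4 and CKX4 were also called higher in Combo than in Control. UGT73C4 had 30.6 and 20.3 TPM under Combo, 3.33 and 3.16 TPM under Hardening, 8.54 and 10.18 TPM under Stress and 0.736 and 1.15 TPM under Control in polysomes (Combo minus Control 2.65 ± 0.27 SE, adjusted p = 0.000343 in limma). CKX4 had 19.02 and 10.21 TPM under Combo, 0.937 and 1.73 TPM under Hardening, 13.7 and 9.10 TPM under Stress and 0.141 and 0.246 TPM under Control (2.87 ± 0.32 SE, adjusted p = 0.0005 in limma). In both genes Combo stood above Hardening and Control without overlap, and only UGT73C4 stood above Stress as well. UGT76E1 was called higher in polysomes (1.21 ± 0.27 SE, adjusted p = 0.00946 in limma), a call that did not survive leaving out either Combo library (1.15 and 1.10) or the first Control library (0.80), and it was not called in monosomes (0.89 ± 0.42 SE, adjusted p = 0.127 in limma). CRTISO-L1 was not called in either fraction, with a log2 change of 0.43 ± 0.14 SE in polysomes and 1.07 ± 0.37 SE in monosomes. AUREA was under the filter in polysomes. In monosomes it had 1.05 and 1.18 TPM under Combo and 0.467 and 16.2 TPM under Stress, was listed at 0 in all Hardening and Control libraries, and was not called.

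The comparison of Combo with the libraries labelled Hardening went against total RNA. In polysomes 32 of 87 members were higher and 1 was lower in Combo, where 17% and 18.8% of all transcripts were, with a median log2 change of 0.90 over the members and 0.06 over all. In monosomes 49 of 90 were higher, where 13.5% of all were, and 0 were lower, where 12.4% of all were, with 62 higher and 1 lower at an unadjusted p under 0.05 in limma. That count was between 23 and 27 when any of the 2 Combo or 2 Hardening monosome libraries was left out, with 5.64% to 7.52% of all transcripts higher, and 75 of 90 with TPM as deposited, where 41.6% of all were higher and 5.47% lower. Because the libraries labelled Hardening carried the profile of leaves that had not been hardened, this comparison cannot be read as the effect of 0 °C on hardened leaves. The single member lower in polysomes was LOC101267310 (XM_019214068.2, chromosome 5), with 8.21 and 6.75 TPM under Combo and 11.8 and 11.6 TPM under Hardening (-1.07 ± 0.15 SE, adjusted p = 0.00153 in limma). This call depended on the scaling, since with TPM as deposited 0 of 90 members were lower, where 13.2% of all were.

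The libraries labelled Stress were the nearest to Combo. In polysomes 16 of 87 members were higher in Combo than under the label Stress, where 10.8% of all were, and 3 were lower, where 4.78% of all were, with a median log2 change of 0.22 over the members and 0.13 over all. The count was 10 without the second Combo library, where 6.13% of all were higher. LOC101255814 had 440 and 406 TPM under Combo, 353 and 342 TPM under Hardening, 67.4 and 48.1 TPM under Stress and 137 and 136 TPM under Control (Combo minus Stress 2.31 ± 0.13 SE, adjusted p = 0.000719 in limma). LOC101262367 (XM_004249068.3, chromosome 10) had 65.9 and 63.2 TPM under Combo, 6.75 and 7.09 TPM under Hardening, 6.67 and 9.14 TPM under Stress and 3.56 and 4.18 TPM under Control (2.33 ± 0.22 SE, adjusted p = 0.00133 in limma). LOC101244047, LOC101252202 and LOC101266223 complete the 5 largest called rises, and XM_004253470.4, LOC101261561 and LOC104645830 were the 3 that were lower. With TPM as deposited 0 of 90 members were lower in polysomes, where 2.35% of all were. In monosomes 0 of 90 members were called in limma, with 1 higher and 1 lower at an unadjusted p under 0.05, and of all 17379 transcripts 0% were higher and 0.00575% lower. The median log2 change of the members there was 0.17, with quartiles of -0.08 and 0.47 and a median standard error of 0.39 per member, so a change of the median's size was not detectable with 2 libraries a group.

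The remaining comparisons of labels complete the account. The label Hardening minus Control gave 4 of 87 members higher and 1 lower in polysomes, where 4.21% and 1.36% of all were, and 6 of 90 higher and 1 lower in monosomes, where 8.23% and 2.08% of all were. Both are close to the background, and so was the polysome count of 40 of 90 with TPM as deposited, where 44.4% of all were higher and 0.522% lower. The label Stress minus Control gave 39 of 87 higher and 5 lower in polysomes, where 23.1% and 19.5% of all were, and 52 of 90 higher and 1 lower in monosomes, where 22.8% and 14.2% of all were. Without the first Stress library these counts of higher members were 25 and 32, where 15.9% and 13.6% of all were higher. The label Hardening minus Stress gave 10 of 87 higher and 30 lower in polysomes, where 25.4% and 18.7% of all were, and 1 of 90 higher and 47 lower in monosomes, where 14.5% and 13.4% of all were. The monosome count of 47 was between 18 and 30 when any Hardening or Stress monosome library was left out, with 7.63% to 9.47% of all lower.

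**Figure D5:**
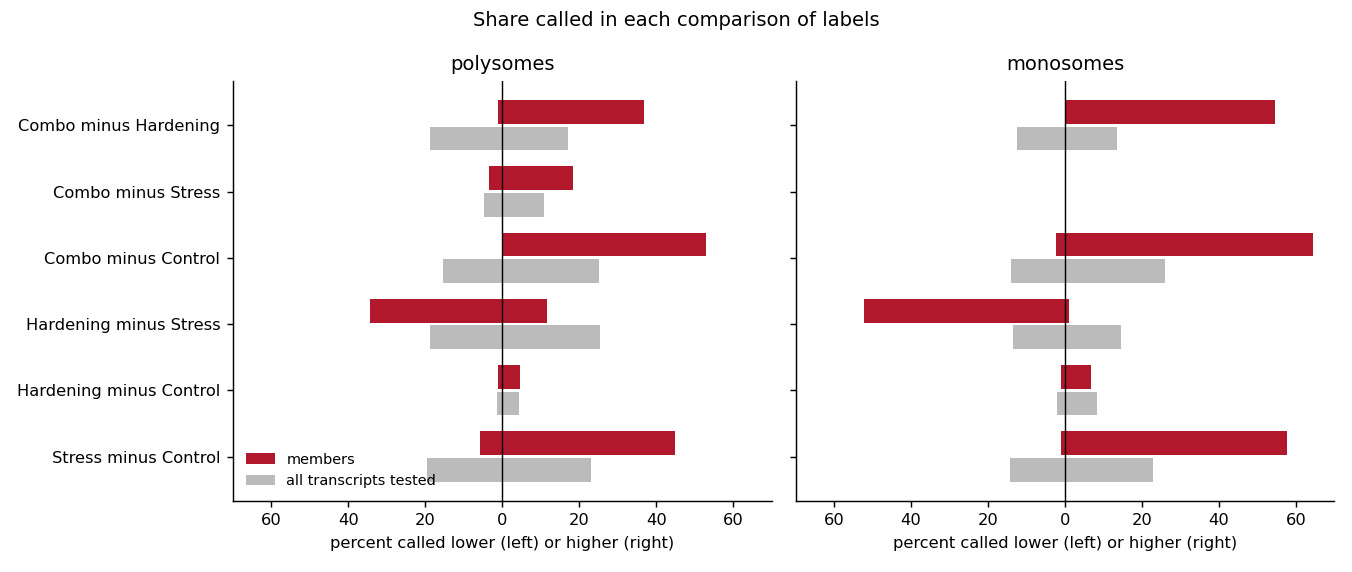
Percent of members (red) and of all transcripts tested (grey) called lower (left of 0) or higher (right of 0) in each comparison of labels, in polysomes (87 members) and monosomes (90 members). In Combo minus Control the red bars reach 52.9% and 64.4% higher, against 25.1% and 26% of all transcripts, and in monosomes Combo minus Stress has no visible bar.

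By the highest mean, Combo led in 68 of 90 members in polysomes and 63 of 90 in monosomes, the label Stress in 16 and 25, the label Hardening in 6 and 1, and Control in 0 and 1. Over all transcripts of 1 TPM or more, Combo led in 52.3% and 48.5% and the label Stress in 16.8% and 31.3%, so the Stress shares of the members, 17.8% and 27.8%, were near those of all. Both Combo libraries lay above the other 6 in 47 members in polysomes, where 39.8% of all transcripts did, and in 28 members in monosomes, where 21.4% did. Both libraries labelled Stress lay above the others in 13 members in polysomes, where 8.54% of all did, and in 5 in monosomes, where 8.61% did. Members whose gene score held and those that are single transcripts were not alone in this. In monosomes Combo minus Control, 27 of 39 single-transcript members, 7 of 14 members with a gene score of 2 or more, 10 of 20 with a lower gene score and 14 of 17 without a match were called higher.

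LOC101252202 (XM_004244085.4, chromosome 7) was among the 5 largest rises in monosome Combo minus Hardening, with 25.3 and 32.4 TPM under Combo, 0.405 and 1.02 TPM under Hardening, 13.1 and 10.1 TPM under Stress and 0 and 0.796 TPM under Control. XM_010315061.2, another of these, had 24.5 and 33.3 TPM under Combo, 0.491 and 0.855 TPM under Hardening, 15.02 and 22.3 TPM under Stress and 0.615 and 0.681 TPM under Control in monosomes. XM_026029086.1 had 12.2 and 11.9 TPM under Combo, 3.24 and 7.38 TPM under Stress and 0 and 0.983 TPM under Control and was listed at 0 in both libraries labelled Hardening. In all 3 the Combo monosome libraries lay above those of every other label. Each was also above every Stress and Control library in Combo total RNA.

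XM_004241912.4 differed widely between total RNA and the polysome libraries of the same label. It had 39.7 and 42.7 TPM in Combo, 88.8 and 102.5 TPM in Hardening, 1.32 and 1.52 TPM in Stress and 7.30 and 11.6 TPM in Control total RNA. In polysomes it had 134 and 146 TPM under Combo, 1.93 and 0.972 TPM under Hardening, 234 and 213 TPM under Stress and 0 and 0.615 TPM under Control. The label Stress, low in total RNA, was thus the highest in polysomes, and the label Hardening was low there. The label check set that was high in Combo and Hardening total RNA also had low polysome medians under Hardening and high ones under Stress. This contrast is therefore not particular to XM_004241912.4, and the part of the labels in it was not tested. The log2 change of XM_004241912.4 in Combo minus Control was 5.92 ± 0.37 SE (adjusted p = 5.38e-05 in limma). XM_019215444.2, at 0 TPM in Combo total RNA, had 1334 and 864 TPM under Combo, 109 and 118 TPM under Hardening, 230 and 211 TPM under Stress and 38.7 and 56.8 TPM under Control in polysomes. In monosomes it had 1771 and 2151 TPM under Combo, 140 and 115 TPM under Hardening, 1328 and 858 TPM under Stress and 2.69 and 1.95 TPM under Control. LOC101251571, near 0 TPM in Combo total RNA, had 159 and 160 TPM under Combo, 7.61 and 7.61 TPM under Hardening, 125 and 92.3 TPM under Stress and 4.76 and 5.44 TPM under Control in polysomes (Combo minus Control 3.33 ± 0.16 SE, adjusted p = 2.05e-05 in limma). Both transcripts were thus near 0 in Combo total RNA, while the Combo ribosome fractions held them at 126 TPM or more in every library. The gene of LOC101251571, with all its transcripts summed, had 190 TPM in Combo total RNA, so the near-0 level is not that of the gene. XM_019215444.2 has no gene in the names table, and its Hardening total RNA libraries differed by more than 3 times.

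Polysomes were compared with monosomes within each label, over 88 members. In Combo, 0 members were higher in polysomes in limma, where 0.317% of all 17642 transcripts were, and 2 were lower, where 0.0453% were, with 1 higher and 8 lower at an unadjusted p under 0.05. The 2 were LOC101257258 (XM_010321718.3), with 17.7 and 14.9 TPM in polysomes and 44.9 and 48.3 TPM in monosomes (-1.46 ± 0.22 SE, adjusted p = 0.0205 in limma), and LOC101267697 (XM_004236639.4), with 75.1 and 48.6 TPM in polysomes and 170 and 143 TPM in monosomes (-1.37 ± 0.23 SE, adjusted p = 0.0349 in limma). Both calls fell away in some of the fits without 1 library, where 0 to 2 members were lower. The members' median log2 difference in Combo was -0.25, where all transcripts had -0.02. Under the label Hardening 10 members were higher and 5 lower in polysomes, where 7.19% and 3.53% of all were, under the label Stress 1 was higher and 7 lower, where 3.03% and 3.61% were, and under Control 10 were higher and 6 lower, where 10.4% and 5.74% were. The count of 10 under Hardening was 5 without the first Hardening polysome library, where 2.7% of all were higher, and the count of 7 under Stress was 3 and 2 without the first and second Stress polysome library, where 2.82% and 1.73% of all were lower.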

How the data were processed

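The authors filtered the reads of poly(A) libraries with fastp, assigned them to the SL3.1 transcriptome with kallisto and deposited TPM, 1 value per transcript and library, scaled to 1000000 per library. The labels also name bcl2fastq 2.20. TPM keeps no depth and the study's read numbers were not used, so no interval from counts is given. The study's own test needs read counts, so limma 3.58.1 in R 4.3.3 was used here instead. Within each fraction, the TPM of the 8 libraries were scaled by an unweighted trimmed mean of log ratios (trims of 30% of log ratios and 5% of levels at each end), a pseudocount of 1 was added and log2 taken. For polysome minus monosome, the 16 libraries of both fractions were scaled and fitted together. Transcripts under a mean of 1 were left out. One mean per condition was fitted with a variance trend and all 4 conditions shared the spread. All p-values were adjusted by Benjamini-Hochberg over all transcripts tested. The fit was tested on simulated data.

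The members and the gene lists were chosen with earlier results of these data known. Named are the 15 highest scores, every member with a gene symbol, the 5 largest called changes without overlap in each direction in polysome Combo minus Hardening and Combo minus Stress and monosome Combo minus Hardening, and the transcripts at ranks 99 to 102. Names come from RefSeq's table of assembly SLM_r2.1, which matched 34881 transcripts, and none of its coordinates are printed. Same-numbered libraries deviated together in total RNA (correlations 0.22 to 0.29 over 6 pairs of groups) but not in polysomes or monosomes, so no replicate block was used there. The main fit of total RNA had no block either, so its p-values leave this pairing out. With a block, every list count in Combo minus Hardening in total RNA was unchanged. Alternatives were TPM as deposited, a pseudocount of 0.1, no filter, adjusted p alone, sums per gene, a replicate block, each library left out, and Combo and Control alone, the last chosen after seeing the data. A planned scan of promoter motifs was not run.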

Additional observations from a re-analysis of the deposited data

Results flagged for a closer look

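For 7 of 88 members (7.95%) the change in Combo minus Control differed between polysomes and monosomes in limma, by the test of the difference itself, which called 8.87% of all 17642 transcripts, so the share of the members was near that of all. The difference, polysome change minus monosome change on the log2 scale, was -4.90 for XM_019215444.2, -3.05 for LOC101257258 (XM_010321718.3), -2.59 for LOC101263256 (XM_004248659.4), -1.93 for LOC101255814 (XM_004244270.4), -1.83 for LOC101267697 (XM_004236639.4) and -1.75 for LOC101267310 (XM_019214068.2), and 3.82 for LOC101244963 (XM_010324315.3). LOC101257258 had 17.7 and 14.9 TPM under Combo and 11.6 and 9.30 TPM under Control in polysomes, but 44.9 and 48.3 TPM under Combo and 3.65 and 2.38 TPM under Control in monosomes. LOC101244963 had 100.2 and 104 TPM under Combo and at most 0.000104 TPM under Control in polysomes, and 74.6 and 118 TPM under Combo and 3.68 and 11.4 TPM under Control in monosomes.

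In 97 members both Combo libraries lay below both Hardening libraries in total RNA, and in 72 of these both Combo libraries lay above both libraries labelled Hardening in polysomes and in monosomes alike. In TPM as deposited, total RNA thus differed in direction from both ribosome fractions in these members. The rule itself asked for the total RNA side, and this difference was not tested. After scaling, 32 of 87 members in polysomes and 49 of 90 in monosomes were called higher in Combo than under the label Hardening. Over all transcripts with Combo below Hardening in total RNA, 2631 of 6566 had the same reversal. The ribosome libraries labelled Hardening carried the profile of leaves that had not been hardened, and the part of the labels in the reversal was not tested.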

How the results depend on the processing

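Without scaling (TPM as deposited), the members called higher were 53 in polysome Combo minus Hardening (31.4% of all transcripts), 40 in Hardening minus Control (44.4% of all), 77 in Combo minus Control (61%) and 31 in Combo minus Stress (26.5%). In monosomes they were 75 in Combo minus Hardening (41.6%), 12 in Hardening minus Control (19.9%) and 79 in Stress minus Control (57.7%), and 72 were lower in Hardening minus Stress (37.1%). In polysome minus monosome the same setting gave 1 lower in Combo (0.0891%), 21 higher under Hardening (15.6%) and 21 lower under Stress (14.2%). With no filter on low values, monosomes gave 3 higher in Hardening minus Control (2.42%) and 28 lower in Hardening minus Stress (4.97%), and 4 were lower in polysomes than in monosomes under Stress (1.35%). In polysome Hardening minus Control, 7 were higher by adjusted p alone and 2 genes after sums over transcripts. The cause of each shift was not tested.

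With a library left out, the counts ranged in polysomes from 27 to 35 higher (Combo minus Hardening), 1 to 6 (Hardening minus Control), 36 to 47 (Combo minus Control), 10 to 17 (Combo minus Stress) and 25 to 36 (Stress minus Control), and from 24 to 32 lower (Hardening minus Stress). In monosomes they ranged from 23 to 55 higher (Combo minus Hardening), 2 to 10 (Hardening minus Control), 32 to 60 (Combo minus Control) and 32 to 55 (Stress minus Control), and from 18 to 56 lower (Hardening minus Stress), with 0 throughout in Combo minus Stress. In polysome minus monosome they ranged from 0 to 2 lower (Combo), 5 to 13 higher (Hardening), 2 to 8 lower (Stress) and 8 to 14 higher (Control). A fit without 1 library leaves a lone library in its group, which is assumed to vary like the others.

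A replicate block, which has no ground in the polysome and monosome libraries (correlations of same-numbered libraries -0.04 to 0.03 and -0.19 to 0.12), gave 46 members higher in polysome Combo minus Control and 55 in monosomes, and 1 lower in polysome minus monosome under Combo. The rule applied to replicate 1 alone shared 63 transcripts with the members, with 0.1 added in place of 1 91, and with scaled TPM 86. Of 223 called results of named members, 209 held without scaling, 196 with a pseudocount of 0.1, 181 with no filter and 212 with the block, and none reversed. TPM holds no read number, so the counting error of values under 1 TPM is not given.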
